A study of Rattus norvegicus with 13 samples.

Results

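Meiotic double-strand break (DSB) hotspots of the rat were tabulated in 96640 windows. Of these, 756 autosomal windows passed a strength threshold in BN and in WKY, strains that carry different alleles of Prdm9. They were selected on 2 values, a hotspot strength of at least 40 in BN and of at least 100 in WKY, and had no other window starting within 3000 bp. They made up 756 of 75246 isolated windows and of 91120 windows on the 20 autosomes. Because strength in BN and WKY chose these shared windows, those values are given as a description only. Both thresholds lie below the median strength of called autosomal hotspots, 71 in BN and 210 in WKY.

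All 5 libraries came from testes of adult rats and were made with an antibody against DMC1, with 1 library for each strain and genotype. The strains were BN/RIJHsd, WKY and SHR/OlaIpcv, each wild-type, and the SHR strain was also sampled as Prdm9+/- (KO/wt) and Prdm9-/- (KO/KO). The Prdm9 allele of SHR is that of WKY, while BN has a different one. Below, a value or call in SHR is that of the wild-type SHR library unless a genotype is given. The KO/KO male carried the KO39 truncating deletion and has no functional PRDM9, the wild-type SHR male was a littermate, and the labels do not name the mutant allele of the KO/wt male. The other 8 of the 13 samples, among them H3K4me3 and input libraries, were not analysed here.

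PRDM9 is a histone methyltransferase of meiotic cells that binds DNA through a tandem array of zinc fingers and marks the bound sites with H3K4me3, after which DSBs are formed nearby. The fingers differ between alleles, so that strains with different alleles usually place their DSBs at different sites. Without PRDM9, DSBs form at other H3K4me3 sites such as promoters, the so-called default sites. DMC1 coats the single-stranded DNA at a DSB, and SSDS sequences that DNA.

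The DNA contacts of PRDM9 are set by a few bases within each repeat of the finger array, and repeats of the SHR array are shown here because an intact copy of this allele was present in 3 of the 5 libraries. The sequence given by the study holds 4 complete repeats of 84 bases. Repeats 2 and 3 differed at 4 bases, written in capitals, and repeat 4 was identical to repeat 2 (0 differences). Which of the 4 bases affect DNA contacts was not examined. Repeat 1 differed from repeat 2 at 16 bases.
SHR allele repeat 2: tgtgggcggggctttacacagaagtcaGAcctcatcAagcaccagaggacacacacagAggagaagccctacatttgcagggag
SHR allele repeat 3: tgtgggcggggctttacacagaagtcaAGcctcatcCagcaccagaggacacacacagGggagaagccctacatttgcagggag
The corresponding array of BN was not analysed here.

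Strength is a whole-number score that can fall below 0, and its definition and scaling are not given in the sources used here. Sums of strength over the whole table ranged from 3447401 in BN to 15408385 in WKY, so a value in one library is not on the scale of another. The number of reads behind each library is unknown. The table also marks each window as called or not called as a hotspot in each library. No difference between conditions has a replicate check. Wilson 95% intervals are given for shares and order-statistic 95% intervals for medians, and they cover the counting of windows only.

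The name of these windows as hotspots of both alleles held for about as many of them as it failed for. A hotspot was called in BN and in WKY in 391 of the 756 windows (51.7%, 48.2 to 55.3%), whereas 0.634% of all isolated windows carried both calls. A further 255 (33.7%) were called in WKY only, 94 (12.4%) in BN only and 16 (2.12%) in neither strain. The division by calls was made after the values had been seen. It is used throughout, since the 391 windows called in both strains and the other 365 differed in the SHR libraries. The rule did not use strengths there, but the 16 called in neither strain entered the table only through a call in an SHR library.

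**Figure D1:**
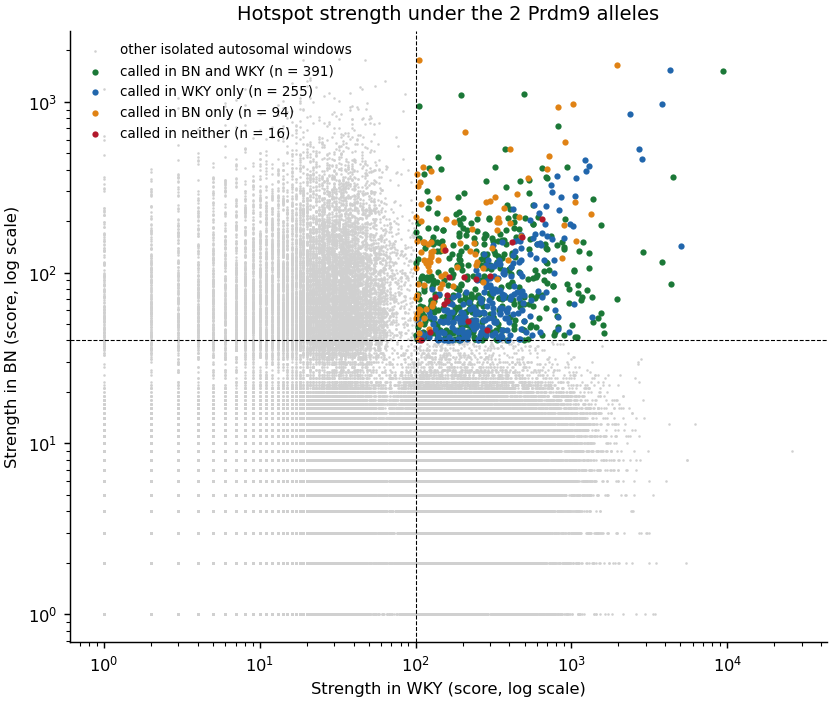
Strength in WKY (x axis, score, log scale) against strength in BN (y axis, score, log scale) for isolated autosomal windows with values above 0, with the selected windows coloured by the strains in which they were called and dashed lines at 100 and 40. The 391 windows called in both strains, the 255 called in WKY only and the 94 called in BN only share the upper right field, and windows called in BN only lie toward its left side, with a median WKY strength of 146.5.

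A strength past the threshold without a call was rare outside the shared windows. Of 14079 isolated windows with a BN strength of 40 or more, 298 (2.12%) had no BN call, and 271 of these 298 (90.9%) were among the 756. Of 26531 isolated windows with a WKY strength of 100 or more, 213 (0.803%) had no WKY call, and 110 of them (51.6%) were among the 756. The shared windows were 5.37% of the windows past the BN threshold and 2.85% of those past the WKY threshold. BN was called in 485 of the 756 (64.2%, 20.6% of isolated windows) and WKY in 646 (85.4%, 38.8% of isolated windows).

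The thresholds cut through a continuous run of values. There were 16 windows at a BN strength of exactly 40 and 18 isolated windows with enough WKY strength at 39. At the WKY threshold, 2 windows lay at 100 and 5 with enough BN strength at 99. Coordinates are those of the rn5 assembly, as deposited. The windows chr1:237571674-237574674 and chr2:167440878-167443878 stood just inside the BN threshold with WKY strengths of 171 and 152. The windows chr2:100087366-100090366 and chr2:180779824-180782824 stood just outside it at 39, with WKY strengths of 253 and 219, and all 4 were called in WKY only. Just inside the WKY threshold, at 100, chr17:44103422-44106422 was called in every library except KO/KO, and chr18:68025399-68028399 was called in BN only. Just outside it, at 99, chr1:55661343-55664343 was called in KO/KO only, with a KO/KO strength of 125, and chr1:186352997-186355997 in BN only.

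Rank was taken over the 91120 autosomal windows of a library, with 1 for the strongest. The median rank of the 756 windows was 8950 in BN, 14289 in WKY, 21301 in SHR, 18068 in KO/wt and 45538 in KO/KO. Their best ranks were 10 in BN, 3 in WKY, 4 in SHR, 5 in KO/wt and 5 in KO/KO. The strongest 100 windows of a library held 11 shared windows in BN, 11 in WKY, 6 in SHR, 6 in KO/wt and 1 in KO/KO. Over all autosomal windows the shared windows were 756 of 91120. The count in KO/KO was near that share, and the median rank there was near the middle of all ranks. Ranks and counts in BN and WKY follow in part from the rule. Within the values that the rule allowed, strength in one strain went only weakly with strength in the other. Spearman's rho between BN and WKY strength was 0.222 over the 756 windows and 0.104 over the 391 called in both strains, where all points come from the same pair of libraries.

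As a description of the 2 values used for the choice, the shared windows were 2.41% (2.14 to 2.71%) of the isolated windows with a WKY strength of 100 to under 200, 3.1% (2.75 to 3.49%) at 200 to under 400, 3.04% (2.6 to 3.55%) at 400 to under 800 and 3.85% (3.07 to 4.82%) at 800 or more. The share was thus higher at the top than at the bottom of the WKY range. By BN strength it was 5.35% (4.85 to 5.9%) at 40 to under 80, 5.45% (4.81 to 6.17%) at 80 to under 160, 4.93% (4.05 to 5.99%) at 160 to under 320 and 6.25% (4.7 to 8.26%) at 320 or more, with overlapping intervals.

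Strengths in the SHR libraries were not used by the rule and give a separate reading of the allele that SHR shares with WKY. Calls there did help decide which windows the table holds, and so which were isolated. Wild-type SHR was called in 265 of the 756 (35.1%, 31.7 to 38.5%), against 21.9% of all isolated windows. A closer comparison is with the 25775 isolated windows that passed the WKY threshold but stayed under 40 in BN, called WKY-strong here, of which 57.7% were called in SHR. Of the 13323 BN-strong windows, which passed the BN threshold but stayed under 100 in WKY, 0.128% were called in SHR. Both names stand for passing a threshold only. The shared windows thus lay between the windows of either allele, and this held for KO/wt too. KO/wt was called in 230 of the 756 (30.4%), in 51.3% of WKY-strong windows, in 0.278% of BN-strong windows and in 21.3% of all isolated windows.

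Divided by calls in BN and WKY, the shared windows fell to either side of this middle position. Among the 391 windows called in BN and WKY, 232 (59.3%) were called in SHR and 203 (51.9%) in KO/wt. Among the other 365, 33 (9.04%) were called in SHR and 27 (7.4%) in KO/wt. Calls in BN, WKY, wild-type SHR and KO/wt together, without KO/KO, were carried by 189 windows (25% of the 756), and 146 were called in BN and WKY alone. The most frequent pattern was a call in WKY alone, with 227 windows, ahead of the 189 and the 146. After these came 93 windows called in BN alone and 42 called in BN, WKY and wild-type SHR. Shares of these patterns over all isolated windows are not given here.

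The 232 windows called in BN, WKY and wild-type SHR had a median strength of 379.5 in WKY, 83.5 in BN and 78 in SHR. In the 159 called in BN and WKY without wild-type SHR, the medians were 175 in WKY, 82 in BN and 16 in SHR. The medians thus lay apart in WKY and close together in BN. The WKY strengths of the 159 reached 9447, with 4 at 800 or more, so single windows strong in WKY were also without a call in SHR.

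Strength in the SHR libraries followed the same division. The median in SHR was 31 (28 to 35) over the 756 windows, 44 over the 391 called in both strains, 27 over those called in WKY only and 12.5 over those called in BN only. It was 42 in WKY-strong windows and 1 in BN-strong windows. In KO/wt the medians were 38 over the 756, 39 over the 391, 41 over the WKY-only windows and 19.5 over the BN-only windows, against 35 in WKY-strong and 3 in BN-strong windows. The windows called in WKY only thus had a lower SHR median and a higher KO/wt median than WKY-strong windows. Both lay above the BN-strong medians, but BN-strong windows had to be under 100 in WKY. The KO/KO median of the WKY-only windows was 23. Few of them were called in SHR: 28 of 255 (11.0%).

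**Figure D2:**
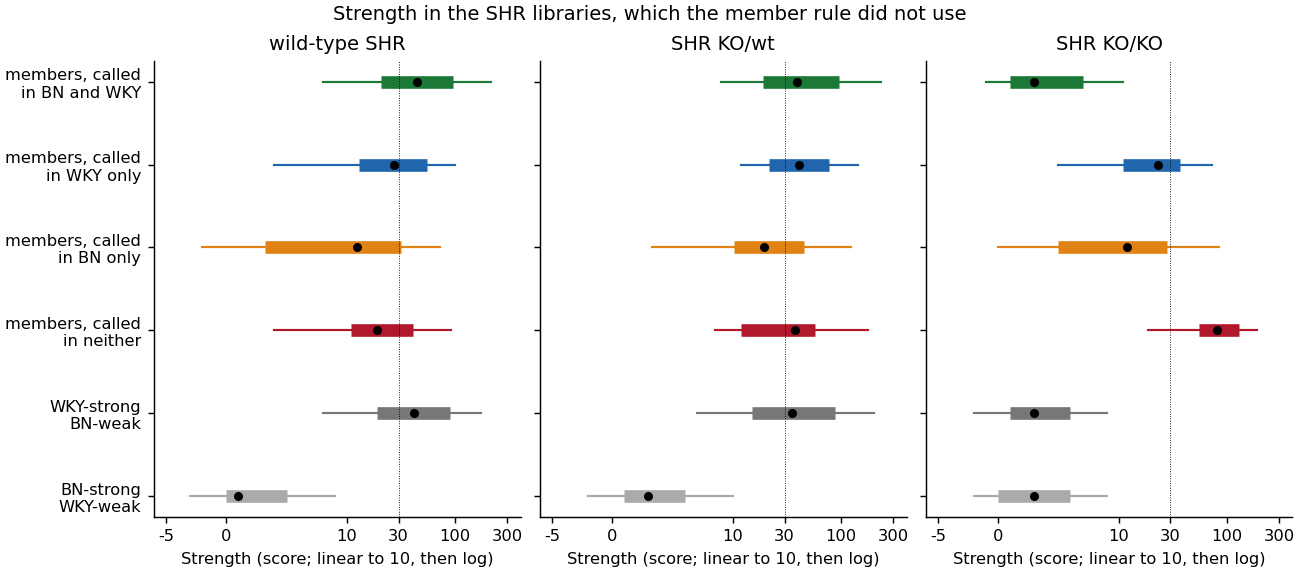
Strength (x axis, score, linear to 10 and then logarithmic) in the 3 SHR libraries, for the selected windows by call class and for WKY-strong and BN-strong windows, with the median as a point, the middle 50% as a thick bar, the 10th to 90th percentile as a thin line and a dotted line at 30. In KO/KO the windows called in both strains have a median of 3, as have WKY-strong and BN-strong windows, whereas those called in WKY only have a median of 23 and those called in neither, which had to be called in an SHR library, a median of 81.

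The KO/KO library shows where DSBs formed without PRDM9. Few shared windows were called there, though their share exceeded those of WKY-strong and BN-strong windows. KO/KO was called in 17 of the 756 (2.25%, 1.41 to 3.57%), in 0.857% of WKY-strong windows, in 1.23% of BN-strong windows and in 40.1% of all isolated windows. Of the 17, 2 were called in both strains (0.512% of the 391), and 12 belonged to the 16 windows called in neither. Every window of the table was called in at least 1 library. Windows called in neither BN nor WKY thus had to be called in an SHR library, and their KO/KO values are largely fixed by that. The 40.1% is raised in the same way, as are other KO/KO shares over all isolated windows, so it is not a like comparison.

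Strength in KO/KO told the shared windows apart more than calls did. A KO/KO strength of 30 or more was found in 144 of the 756 (19.0%), in 0.861% of WKY-strong windows, in 1.22% of BN-strong windows and in 34.1% of all isolated windows. In the 391 windows called in both strains the number was 11 (2.81%, 1.58 to 4.97%), with a median KO/KO strength of 3. In the other 365 it was 133 (36.4%, 31.7 to 41.5%), with a median of 21. By class it was 96 of 255 WKY-only windows (37.6%), 23 of 94 BN-only windows (24.5%) and 14 of the 16 called in neither. Most of these windows were not called in KO/KO, where 15 of the 365 (4.11%) were called. What raised their strength without a call was not tested, and input libraries were not analysed here.

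Over the 365 windows not called in both strains, KO/KO strength went along with strength in all other libraries. Spearman's rho of KO/KO with wild-type SHR was 0.514, with KO/wt 0.667, with WKY 0.489 and with BN 0.319. Over the 391 called in both strains the same values were 0.034, 0.140, 0.055 and -0.028. WKY-strong windows gave 0.068 for KO/KO with wild-type SHR and 0.015 for KO/KO with WKY. Strength in SHR and WKY was correlated in the 391 windows at 0.663, beside 0.677 in WKY-strong windows, and between wild-type SHR and KO/wt at 0.874, beside 0.884. Windows share their libraries and may share local sequence, so these are descriptions across windows.

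Since stronger windows were called more often, windows were also compared within classes of WKY strength. In windows called in both strains, wild-type SHR strength was 15.3% of WKY strength at WKY 100 to under 200 (median, 13.3 to 17.4%), 15.7% at 200 to under 400 (12.1 to 17.9%), 17.6% at 400 to under 800 (15.4 to 22.8%) and 24.4% at 800 or more (18 to 27.9%). In WKY-strong windows the medians were 14.6%, 17.7%, 19.7% and 19.9%. The intervals overlapped in all 4 classes. In the windows not called in both strains the medians were 8.79%, 7.46%, 9.03% and 6.95%, and in each class their interval lay below that of WKY-strong windows.

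The share called in SHR rose with WKY strength in windows called in both strains, from 34.2% and 59.7% to 88.8% and 90.2% in the same 4 classes. WKY-strong windows gave 27.4%, 71.4%, 90.3% and 89.6%. At 200 to under 400 the windows called in both strains were lower, with an interval of 50.9 to 67.9% against 70.5 to 72.4%. Windows not called in both strains gave 3.28%, 10.1%, 15.1% and 12.9%, far below the other sets at any WKY strength. In them the share with a KO/KO strength of 30 or more was 17.2%, 31.7%, 63.0% and 71.0%, while in windows called in both strains it lay between 2.44% and 3.23%. In classes of BN strength that began at 40, 80, 160 and 320, the median KO/KO strength of windows not called in both strains was 17, 21, 39 and 84.5, and that of windows called in both was 4, 4, 3 and 2.

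**Figure D3:**
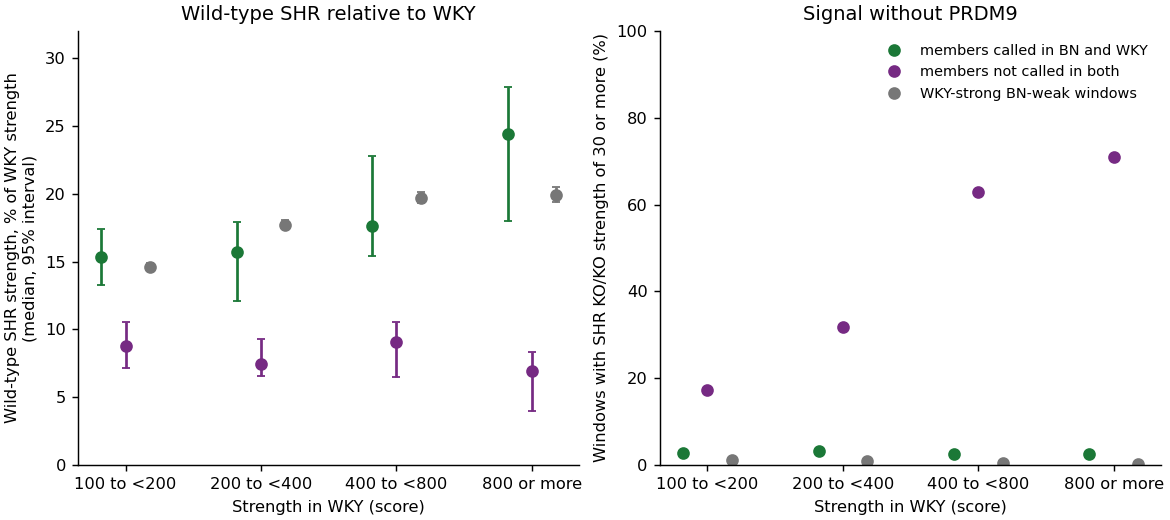
Left, wild-type SHR strength as a percentage of WKY strength (y axis, median with 95% interval) and right, the percentage of windows with a KO/KO strength of 30 or more (y axis), in 4 classes of WKY strength (x axis, score) for 3 sets of windows. On the left, windows called in both strains run from 15.3% to 24.4% beside WKY-strong windows, with the windows not called in both below them, and on the right the latter climb from 17.2% to 71.0%.

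By the poorer of their ranks in BN and WKY, the leading window was chr1:58462998-58465998. Its strength was 9447 in WKY (rank 3) and 1519 in BN (rank 14), and it was called in both. The same window had strengths of 5 in SHR, 9 in KO/wt and -3 in KO/KO. SHR thus gave 0.0529% of the strength in WKY, which has the same Prdm9 allele. Of the 391 windows called in both strains 13 (3.32%) lay under 1%, beside 4.47% of WKY-strong windows and 12.3% of the 365 not called in both. This window was the only 1 of the 13 among the 41 with a WKY strength of 800 or more. At that strength 121 of 1800 WKY-strong windows and 5 of 31 windows not called in both lay under 1%.

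The leading window did not stand alone, as 12 other windows lay within 100 kb. At chr1:58475941-58478941 the strength was 1794 in WKY, 260 in BN and -7 in SHR. At chr1:58480848-58483848 it was 1228 in WKY, 118 in BN and 1 in SHR. The window chr1:58482465-58485465, which overlaps the latter, was listed at -1276 in WKY and -102 in BN and at 112 in KO/KO, where it was called. Signal in WKY and BN with almost none in SHR was therefore listed in several neighbours, but these were not separate from each other. The windows at 1794 and 1228 in WKY were called in BN only, and both overlap chr1:58477932-58480932. That window had 714 in WKY, 127 in BN and 9 in SHR and was called in WKY only. Other windows within 100 kb did not share the pattern. At chr1:58386622-58389622 the strength was 331 in WKY, 11 in BN and 53 in SHR, with a call in SHR.

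The next 4 windows by the poorer rank were not called in both strains. At chr1:58043592-58046592 the strengths were 4284 in WKY, 1529 in BN, 342 in SHR, 686 in KO/wt and 462 in KO/KO, with a call in WKY only. At chr12:5494137-5497137 they were 3813 in WKY, 964 in BN, 265 in SHR, 507 in KO/wt and 465 in KO/KO, again with a call in WKY only. In both windows strength was thus 265 or more in all libraries, the one without PRDM9 included, and a call was made in WKY alone.

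The window chr17:59048634-59051634 had 2379 in WKY, 851 in BN, 85 in SHR, 162 in KO/wt and 125 in KO/KO and was called in WKY only. At chr2:216835174-216838174 the strengths were 1966 in WKY, 1646 in BN, 229 in SHR, 656 in KO/wt and 188 in KO/KO. It was called in every library except WKY, where its strength nevertheless ranked at 134.

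Among the windows called in both strains, the best poorer ranks after the leading one belonged to 5 windows, named after their values were seen. The strongest of them in SHR was chr1:150837642-150840642, with 2511 in SHR (rank 4), 3254 in KO/wt (rank 5), 21 in KO/KO, 4477 in WKY (rank 15) and 362 in BN. The window chr20:15271521-15274521 had 253 in SHR, 234 in KO/wt, 2 in KO/KO, 1383 in WKY and 271 in BN. In these windows signal was present in the 4 libraries with PRDM9, and KO/KO was low.

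The ratio of BN to WKY strength was highest among these at chr7:122603940-122606940, where 720 in BN was 87.7% of 821 in WKY, with 236 in SHR, 273 in KO/wt and 2 in KO/KO. At chr1:54570543-54573543 the strengths were 914 in WKY, 206 in BN, 213 in SHR, 442 in KO/wt and 2 in KO/KO. The exception was chr17:57161299-57164299, with 935 in WKY, 413 in BN, 53 in SHR, 98 in KO/wt and 67 in KO/KO, which was called in BN and WKY but not in SHR.

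The strongest shared windows in SHR were called in 4 libraries and not in KO/KO. After chr1:150837642-150840642 came chr1:150991641-150994641, with 2217 in SHR, 2960 in KO/wt, 16 in KO/KO, 2899 in WKY and 132 in BN. The third was chr3:52239119-52242119, with 1371 in SHR, 1794 in KO/wt, 9 in KO/KO, 3820 in WKY and 115 in BN. Their BN ranks were 4477 and 5485, far behind their SHR ranks of 6 and 18.

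The highest WKY strength after the leading window was at chr2:134263332-134266332, with 5059 in WKY, 143 in BN, 33 in SHR, 33 in KO/wt and 11 in KO/KO. It was called in WKY only and, like the leading window, had under 1% of its WKY strength in SHR. The highest BN strength was at chr3:53619776-53622776, with 1749 in BN (rank 10), 105 in WKY, -12 in SHR, 12 in KO/wt and 7 in KO/KO. It was called in BN only and owed its place to a WKY strength just past the threshold.

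The ratio of BN to WKY strength spanned a wide range. After chr3:53619776-53622776 the highest were chr1:153017327-153020327, with 944 in BN and 105 in WKY, and chr9:65773361-65776361, with 1096 in BN and 195 in WKY. Both were called in BN and WKY, and their wild-type SHR strengths were 14 and 1. The lowest ratios were 1.98% at chr3:53413502-53416502, with 86 in BN and 4353 in WKY, and 2.72% at chr2:249303569-249306569, with 44 in BN and 1619 in WKY. These last 2 were called in all libraries except KO/KO, and the first had 1281 in SHR.

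The ratio of wild-type SHR to WKY strength was highest in 3 windows where SHR exceeded WKY. At chr1:38678420-38681420 the strengths were 625 in SHR, 526 in KO/wt, 258 in KO/KO, 284 in WKY and 82 in BN, with a call in WKY only. At chr7:21461413-21464413 they were 479, 481, 220, 348 and 57 in the same order of libraries, also with a call in WKY only. In contrast, chr2:191024256-191027256 had 212 in SHR, 290 in KO/wt, 11 in KO/KO, 127 in WKY and 152 in BN and was called in all but KO/KO. The lowest ratios came from values below 0 in SHR, -24 at chr1:186223041-186226041, -12 at chr3:53619776-53622776 and -16 at chr15:9629812-9632812.

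A call in all 5 libraries was made in 1 window, chr14:107870145-107873145. Its strength was 1561 in KO/KO (rank 5), 525 in KO/wt, 109 in SHR, 180 in WKY and 63 in BN. Its rank was 607 in KO/wt and 6613 in SHR, so that KO/wt lay between KO/KO and wild-type SHR. The second strongest in KO/KO was chr1:186986485-186989485, with 753 in KO/KO, 1307 in SHR, 1800 in KO/wt, 973 in WKY and 193 in BN, called in all libraries except BN.

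The remaining windows among the 10 strongest called in KO/KO were, chr2:216835174-216838174 aside, called in neither BN nor WKY. At chr12:36548651-36551651 the strength was 392 in KO/KO, 12 in SHR, 41 in KO/wt, 124 in WKY and 45 in BN. At chr9:7794196-7797196 it was 191 in KO/KO, 160 in WKY and 68 in BN. At chr16:64599335-64602335 it was 183 in KO/KO, 204 in WKY and 94 in BN. All 3 were called in KO/KO alone and had wild-type SHR strengths of at most 25.

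The same call pattern was seen at chr7:10433694-10436694, chr4:209844619-209847619 and chr16:64569763-64572763, with KO/KO strengths of 178, 112 and 102. At chr1:186401122-186404122 the strengths were 111 in KO/KO, 144 in SHR, 289 in KO/wt, 154 in WKY and 136 in BN, and all 3 SHR libraries carried a call.

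Shared windows were found on every autosome. Chromosome 1 held the most, 109, and chromosomes 19 and 20 held 9 each. As a share of isolated windows they ranged from 0.44% on chromosome 19 (0.232 to 0.835%) and 0.448% on chromosome 10 (0.28 to 0.716%) to 1.58% on chromosome 9 (1.24 to 2.02%) and 1.72% on chromosome 15 (1.32 to 2.24%). For windows called in both strains the range was 0.196% on chromosome 19 to 0.862% on chromosome 15. Chromosome 12 had 5 windows called in both strains and 14 that were not, and its shared windows had a median KO/KO strength of 27, whereas chromosome 10 had 15 and 2, with a median of 2.

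The windows not called in both strains were bunched. In bins of 1 Mb, 29 bins held 4 or more shared windows, a limit chosen after the data were seen. These bins were picked for their number of shared windows, so a high share in them was built in. Their share of all isolated windows was not computed. Together they held 191 of the 756 (25.3%). Of these 191, 22 (11.5%, 7.73 to 16.8%) were called in both strains and 36.1% had a KO/KO strength of 30 or more. In the other 565 windows 65.3% (61.3 to 69.1%) were called in both strains and 13.3% reached 30 in KO/KO. Over all 365 windows not called in both strains 36.4% reached 30, so the KO/KO contrast between bins went along with the division by calls. The median WKY strengths of the windows inside and outside such bins were 271 and 265.

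The fullest bin was 9 to 10 Mb of chromosome 15, where 20 of 47 isolated windows were shared and 9 of the 20 were called in both strains. In 186 to 187 Mb of chromosome 1, 14 of 36 isolated windows were shared and 1 was called in both. The bin at 0 to 1 Mb of chromosome 2 held 11 of 53, none of them called in both, and that at 21 to 22 Mb of chromosome 7 held 11 of 29, with 1 called in both. In 7 to 8 Mb of chromosome 9, 8 of 12 isolated windows were shared, and in 0 to 1 Mb of chromosome 7, 6 of 8, with none called in both in either bin.

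The length of each chromosome was taken as the end of its last window in the table. Of the 756 windows, 146 (19.3%, 16.7 to 22.3%) lay within 10 Mb of an end, compared with 15.1% of isolated windows, 14.1% of WKY-strong and 13.2% of BN-strong windows. Outside the 29 bins of 4 or more shared windows it was 80 of 565 (14.2%, 11.5 to 17.3%). This interval holds the 15.1% of isolated windows, so no difference in either direction is shown there. The bins were not removed from the isolated windows, and they had been picked for holding many shared windows. The 391 windows called in both strains gave 14.1% (11.0 to 17.9%). The WKY-only windows gave 27.8% (22.7 to 33.6%), with 24.3% in the 10 Mb at the start of the coordinates and 3.53% in the last 10 Mb. All isolated windows had 6.08% at the start and 8.97% at the end. Of the 62 WKY-only windows at the start, 46 lay in 7 of the 29 bins, and without these bins 25 of 128 WKY-only windows (19.5%, 13.6 to 27.2%) lay near an end, 16 of them (12.5% of the 128) at the start. The median distance to the nearer end was 33.9 Mb for the 756, 37.9 Mb for those called in both strains, 22.7 Mb for WKY-only windows and 32.6 Mb for isolated windows.

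**Figure D4:**
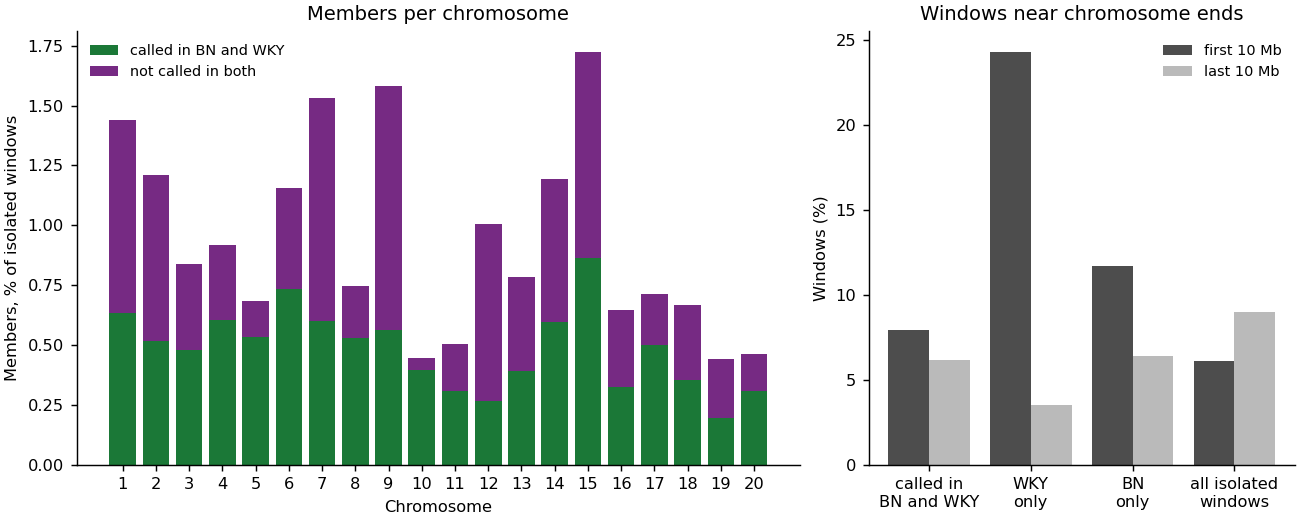
Left, shared windows as a percentage of the isolated windows of each autosome (y axis), divided into those called in both strains and those not. Right, the percentage of windows (y axis) within the first and the last 10 Mb of a chromosome, where windows called in WKY only stand at 24.3% in the first 10 Mb against 6.08% of all isolated windows. Without bins of 4 or more shared windows the WKY-only value was 12.5%, which is not drawn.

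The 2 windows nearest to an end were neighbours on chromosome 18 and were themselves the last windows of the table there. At chr18:87118391-87121391 the strength was 398 in WKY, 51 in BN and 27 in KO/KO, and at chr18:87114108-87117108 it was 474 in WKY, 75 in BN and 39 in KO/KO. Both were called in WKY only.

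Hotspots lay near most shared windows, as they did near most isolated windows. No BN call lay within 100 kb of 30.2% of the 756, beside 22.5% of isolated windows. Around the shared windows called in both strains there were on average 2.42 windows called in BN and 3.58 called in WKY within 100 kb. The averages around all isolated windows were 1.73 and 3.0. The median of WKY calls was 3 in both sets, and that of BN calls was 2 against 1. Around BN-only windows the mean was 6.16 BN calls with a median of 2, and around WKY-only windows it was 5.89 WKY calls with a median of 4. No BN call lay within 100 kb of 54.1% of WKY-only windows, 17.4% of windows called in both and 22.5% of isolated windows.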

How the data were processed

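SSDS reads were aligned by the authors to the rat assembly rn5 with a modified bwa, version 0.7.12 per the labels, and hotspots were called in each library from uniquely mapping type 1 single-stranded fragments. The deposited table holds, for each of 96640 windows and 5 libraries, a strength, which is a score of unstated scaling, and a call of 1 or 0. How strength was computed and how windows were merged is not given in the sources used here. The notes of the submitters also name bedtools 2.23.0 and MACS2 2.1.0.20150420. Windows are 3000 bp long except for 1, and coordinates are as deposited. The Prdm9 repeats were cut from a sequence in a supplementary table of the study.

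The selection rule, the comparison sets and the rules for naming windows were chosen with earlier results of these data known. Windows were isolated when no other window started within 3000 bp. Ranks were taken over autosomal windows, with ties at the best rank. Windows named were the 5 with the best poorer rank in BN and WKY, the 3 strongest of each library, the 10 strongest called in KO/KO, the 3 highest and lowest of each ratio, the 2 nearest an end, those at the thresholds, and those called in all libraries. Shares have Wilson 95% intervals. With 1 library per condition no test was made. The scripts recovered 4 of 4 answers built into simulated data of 96640 windows. Other thresholds, distances and definitions of use were tried. Scripts ran in Python 3.11.15 with scipy 1.17.1, pandas 2.3.3, matplotlib 3.10.9 and numpy 2.4.6. Gene annotation and sequence of rn5 were not used here.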

Additional observations from a re-analysis of the deposited data

How the results depend on the processing

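Of 77 values under other settings, 30 stayed within the interval of the reported value, or within 1.5 times the reported number, and 47 moved. The reported values are 756 windows, of which 35.1% were called in wild-type SHR (SHR from here on), 30.4% in KO/wt and 2.25% in KO/KO, median strengths of 31, 38 and 7 in these libraries, and 19.3% within 10 Mb of an end. Without the isolation rule there were 1787 windows, with 27.7% called in SHR and 23.9% in KO/wt and medians of 32 in KO/wt and 5 in KO/KO. With no other window within 10000 bp there were 383, with 39.9%, 35.2% and 1.31% called in the 3 SHR libraries, a SHR median of 36 and 15.4% near an end. Thresholds of 30 in BN and 75 in WKY gave 1265 windows, 31.7% called in SHR and medians of 25 and 27 in SHR and KO/wt. Thresholds of 80 and 200 gave 258 windows, 44.6% and 41.5% called in SHR and KO/wt, and medians of 51.5, 64.5 and 11. Requiring a call in both strains gave 391 windows, 59.3%, 51.9% and 0.512% called, medians of 44 in SHR and 3 in KO/KO, and 14.1% near an end. Adding chromosome X gave 39.5% and 34.3% called in SHR and KO/wt. Within 5 Mb and 20 Mb of an end lay 8.73% and 32.3%, beside 6.57% and 31.1% of isolated windows. The interval at 20 Mb, 29.0 to 35.7%, holds the share of isolated windows. A strength of 30 or more in place of a call was met by 52.6%, 57.0% and 19.0% in SHR, KO/wt and KO/KO.

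Other settings were chosen after seeing the data. Without bins of 4 or more shared windows, 45.8% and 39.6% were called in SHR and KO/wt, the medians were 36 in SHR and 5 in KO/KO, and 14.2% lay near an end. The 365 windows not called in both strains gave 9.04%, 7.4% and 4.11% called, medians of 22 in SHR and 21 in KO/KO, and 24.9% near an end. Allowing a window exactly 3000 bp away left 756. The causes of these movements were not tested, apart from fewer or more windows entering by construction. No paired analysis was possible because each condition had 1 library. Depth in reads is unknown, so a strength near a threshold has no error of its own.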

Other observations

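Chromosome X was left out of the selection. Of its 4142 isolated windows, 100 passed the same strength thresholds (2.41%, 1.99 to 2.93%), and 85 of the 100 were called in BN and in WKY. Their median strengths were 141 in wild-type SHR (SHR from here on), 102 in KO/wt, 5 in KO/KO, 461 in WKY and 206 in BN. SHR was called in 73 of the 100, KO/wt in 64 and KO/KO in 5, and 12 had a KO/KO strength of 30 or more. The same shares over all 4142 isolated X windows were not computed. These counts therefore do not show whether the 100 differ from the rest of chromosome X.

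The X window with the best poorer strength of BN and WKY was chrX:20803925-20806925 in rn5, with 6505 in BN, 4199 in WKY, 1494 in SHR, 1979 in KO/wt and 17 in KO/KO. At chrX:85916290-85919290 the strength was 1031 in BN, 3239 in WKY, 3108 in SHR, 5557 in KO/wt and 18 in KO/KO. At chrX:134837549-134840549 it was 967 in BN, 6060 in WKY, 1661 in SHR, 1410 in KO/wt and 12 in KO/KO. All 3 were called in every library except KO/KO. Males have a single copy of X. The study describes doubling X strengths for a comparison with autosomes, and whether the deposited values already carry that factor is not given in the sources used here. No factor was applied, so X and autosomal strengths are not compared.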
